A study of Mus musculus with 54 samples.

Results

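The distal microRNA cluster of the Dlk1-Dio3 imprinted region was followed here by 42 mature microRNAs (miRNAs), named from miR-379 to miR-410, in white adipose tissue of the epididymal pad (eWAT), liver and sperm of mice on 3 diet schedules. The members were taken by name: all 42 were among the 1966 mature miRNA names of the deposited eWAT and liver count tables, and 2 of them were among the 79 miRNAs of the sperm table. All animals were wild-type C57BL/6 males of the F0 generation that ate chow until 6 weeks of age, entered their diets at that age and were sampled at 24 weeks. HFLF males ate high fat for 9 weeks and then low fat for 9 weeks, HF males ate high fat for 18 weeks, and LF males ate low fat for 18 weeks; the treatment text prints the high-fat diet once as "HLD", which was read as HF. Each tissue had 6 libraries per diet, so 18 per tissue and 54 in all. Table columns carry diet codes: C or CD was taken for LF, H or HF for HF, and R or RE for HFLF, and the sources used here do not define C and R. Libraries are numbered within each diet, but nothing in the labels says that libraries of a group came from different animals, and the p-values describe only the spread among libraries.

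The Dlk1-Dio3 region is imprinted: its protein-coding genes, among them Dlk1, which holds back fat-cell differentiation, are expressed from the paternal chromosome, and its long noncoding RNAs and miRNAs from the maternal one. The distal cluster lies within a long maternal transcript whose annotated part is Mirg (miRNA containing gene), from which its hairpins are cut. After birth these miRNAs are best known from the brain, and mice that lack the cluster have low blood glucose as newborns. A miRNA pairs with target messengers mainly through its seed, bases 2 to 8 from the 5′ end, and each hairpin can give a strand from its 5′ side (5p) and from its 3′ side (3p).

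The 42 members come from 33 hairpins on the plus strand of chromosome 12. They span 34736 bases, from position 109709060 (miR-379) to position 109743795 (miR-410) in build GRCm38.p6. Of these hairpins, 21 lie upstream of the annotated start of Mirg (109729764 to 109749460 in GRCm38) and 12 within it: 4 in an exon, 4 across an exon border and 4 in an intron. Mature sequences were found in the RefSeq table (GRCm38.p6) for 39 members; none was found there for miR-376c-3p, miR-487b-3p and miR-485-5p. The sequences below are of members that the results turn on, in genome order by hairpin, with the seed in capitals.
mmu-miR-379-5p: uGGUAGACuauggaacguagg
mmu-miR-379-3p: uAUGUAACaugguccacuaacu
mmu-miR-411-5p: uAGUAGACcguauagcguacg
mmu-miR-411-3p: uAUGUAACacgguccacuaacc
mmu-miR-380-3p: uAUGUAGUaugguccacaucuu
mmu-miR-543-3p: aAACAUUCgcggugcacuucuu
mmu-miR-376b-3p: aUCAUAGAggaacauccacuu
mmu-miR-376a-3p: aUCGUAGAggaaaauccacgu
mmu-miR-382-5p: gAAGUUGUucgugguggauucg
mmu-miR-382-3p: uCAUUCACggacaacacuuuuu
mmu-miR-134-5p: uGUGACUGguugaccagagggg
mmu-miR-485-3p: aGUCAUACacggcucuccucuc
mmu-miR-541-5p: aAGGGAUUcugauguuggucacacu
mmu-miR-409-3p: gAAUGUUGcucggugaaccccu
mmu-miR-369-3p: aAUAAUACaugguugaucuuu

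The 39 matched members carried 38 different seeds. The only seed held by more than 1 member was AUGUAAC, in miR-379-3p and miR-411-3p. These neighbours differ by U10C and U22C (miR-379-3p first, counted from the 5′ end), and miR-376a-3p and miR-376b-3p differ by G4A, A13C and G20U, the first of which lies in the seed. How the authors' counting divided reads between such near copies is not given in the sources used here, so the split within each pair is uncertain.

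Total counts ran between 7481038 and 13022536 per eWAT library and between 7017730 and 14394584 per liver library. Levels are given as CPM (counts scaled to 1000000 per library, with trimmed mean of M-values, TMM, factors within each tissue), and 3 counts came to between 0.239 and 0.402 CPM in eWAT and between 0.199 and 0.451 CPM in liver. In liver the summed hepatocyte markers held 420460 to 538380, 340430 to 479040 and 452610 to 662480 CPM on HFLF, HF and LF, far above eWAT, where they held at most 10362 CPM. In eWAT, 3 libraries (written as diet and library number) were highest in miRNAs of epididymis epithelium, whose sum was 2019 CPM in HFLF 4, 8534 CPM in LF 4 and 4177 CPM in LF 5. LF 3, at 1337 CPM, and LF 2, at 484 CPM, were also raised, and the remaining libraries held at most 147 CPM. A filter on low counts, 10 counts at the median library size in at least 6 libraries, was passed by 37 members in eWAT (571 of all miRNAs) and by 12 in liver (422 of all miRNAs). Of the members, 41 had at least 1 count in eWAT and 38 in liver, and miR-654-3p had none in any library of either tissue. In eWAT, 32 of the 37 members also reached the filter's level in 6 or more of the HFLF and LF libraries alone; the other 5, miR-380-3p, miR-380-5p, miR-376a-3p, miR-539-5p and miR-412-5p, did not.

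A few 5p strands supplied most of the cluster's reads. In eWAT the mean over 18 libraries was 388 CPM for miR-379-5p (29.0% of the cluster's sum), 232 CPM for miR-541-5p (17.3%) and 154 CPM for miR-411-5p (11.5%). The first 3 members together took 57.8% of the sum and the first 10 took 84.0%. In liver the same 3 led, with 15.7, 12.5 and 6.18 CPM, and took 55.3% of a much smaller sum. Across the 42 members the order of mean levels in eWAT and liver had a Spearman rho of 0.952, which is given as a description, since both tissues share a library preparation whose ligation step takes up some miRNAs better than others. Levels of different miRNAs are for that reason compared only roughly.

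In eWAT the cluster stood highest on HF, and its level after the return to low fat was close to that of males always on low fat. The summed level of the 42 members, as the lowest, median and highest of 6 libraries, was 893, 1079 and 1189 CPM in HFLF eWAT, 1258, 1658 and 2912 CPM in HF eWAT, and 654, 1103 and 1444 CPM in LF eWAT. Every HF library lay above every HFLF library, while HF and LF overlapped. The mean sums were 1069.8 ± 110 CPM on HFLF, 1871 ± 653 CPM on HF and 1079.7 ± 292 CPM on LF (SD, n = 6 each), so HF stood at 1.73 times LF, HFLF at 0.572 times HF and HFLF at 0.991 times LF. As a share of all miRNA counts the cluster held 0.105% on HFLF, 0.212% on HF and 0.0983% on LF. The highest library, HF 3, had 2912 CPM and was also the highest of all 18 for 28 of the 37 members; HF 4 was highest for 7 more. Without HF 3, HF over LF was 0.62 and HFLF over HF was -0.64 on the log2 scale, against 0.79 and -0.81 with it.

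**Figure D1:**
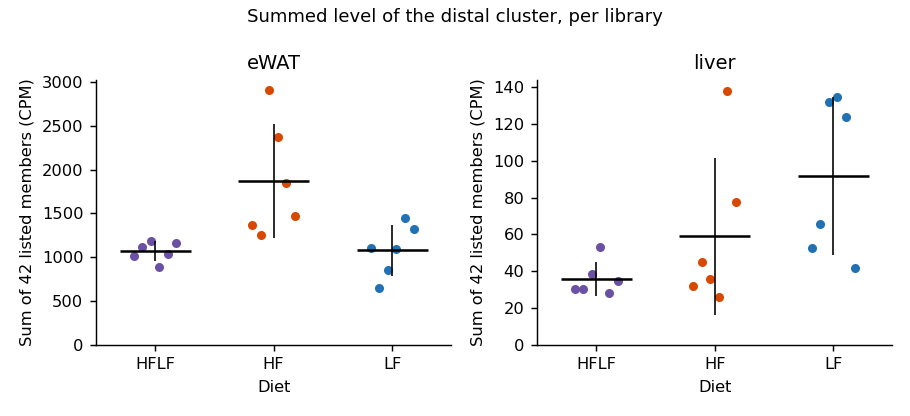
Summed level of the 42 members in CPM (vertical axis) by diet, for eWAT on the left and liver on the right, each on its own scale; points are libraries, horizontal lines the mean and vertical bars 1 SD (n = 6). All HF eWAT libraries lie above the HFLF ones, with HF 3 at 2912 CPM, and in liver the LF libraries reach from 41.9 to 135 CPM while the HFLF libraries end at 53.2 CPM.

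In eWAT the members called between HF and LF were all higher on HF. By edgeR's quasi-likelihood test with Benjamini-Hochberg adjustment over all 571 miRNAs (adjusted p below 0.05), 21 of the 37 tested members were higher in HF than in LF eWAT and 0 were lower, where 19.6% of all tested miRNAs were higher and 15.2% lower. None of the 5 low members named above was among the 21. All 37 fold changes were positive, between 0.35 and 1.74 on the log2 scale with a median of 0.99, beside a median of 0.03 over all tested miRNAs and -0.04 over those outside the cluster. Scaling by total counts moved the median of all tested miRNAs to 0.32 and that of the members to 1.28, and called 32 members and 35.9% of all tested miRNAs higher. The HF and LF libraries of 11 members did not overlap, where 9.63% of all tested miRNAs were higher without overlap. Among the 11 is miR-380-3p, a low member that reached the filter's level through the HF libraries, so its separation is not counted as a result.

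In miR-379 and miR-411, the first hairpins of the cluster, the 3p strand was called and the more abundant 5p strand was not. mmu-miR-379-5p, which responds to glucocorticoids in mouse liver, had 271, 327 and 400 CPM in HFLF eWAT, 265, 464 and 652 CPM in HF eWAT and 181, 342 and 564 CPM in LF eWAT. The diets overlapped over most of their range, and HF over LF was 0.35 (log2, SE 0.26, edgeR adjusted p = 0.303). Its partner miR-379-3p had 14.9, 17.6 and 22.3 CPM on HFLF, 25.3, 34.8 and 72.9 CPM on HF and 11.6, 19.9 and 21.3 CPM on LF. Every HF library was above every library of the other diets, and miR-379-3p rose in HF over LF by 1.21 (log2, SE 0.25, edgeR adjusted p = 0.00148). mmu-miR-411-5p had 108, 132 and 158 CPM on HFLF, 121, 175 and 280 CPM on HF and 70.9, 132 and 187 CPM on LF, again with overlap, and its HF over LF fold change of 0.53 missed the threshold (edgeR adjusted p = 0.101). mmu-miR-411-3p, which shares its seed with miR-379-3p, had 29.4, 36.6 and 41.2 CPM on HFLF, 50.9, 67.9 and 149 CPM on HF and 19.5, 33.5 and 45.1 CPM on LF. The HF libraries were clear of both other diets and the log2 fold change of HF over LF was 1.29 (SE 0.26, edgeR adjusted p = 0.00108).

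The middle of the cluster, from miR-543 through the miR-376 family, gave both the largest estimates and several without a call. mmu-miR-543-3p had 26.4, 31.5 and 38.7 CPM in HFLF eWAT, 35.3, 64.7 and 116 CPM in HF eWAT and 18.5, 28.0 and 33.9 CPM in LF eWAT. It was higher in every HF than in any LF library, by 1.37 (log2, SE 0.24, edgeR adjusted p = 0.000453). The miR-376 family is known for adenosine-to-inosine editing in brain, which alters its seed. mmu-miR-376b-3p had 3.51, 3.94 and 6.27 CPM on HFLF, 5.42, 7.20 and 18.9 CPM on HF and 1.41, 3.06 and 4.90 CPM on LF. Its HF and LF libraries did not overlap, and its HF over LF log2 fold change was 1.58 (SE 0.35, edgeR adjusted p = 0.00242). mmu-miR-376a-3p was near the limit of detection, with 0.274, 1.05 and 1.4 CPM on HFLF, 0.481, 1.92 and 5.62 CPM on HF and 0, 0.628 and 1.79 CPM on LF. Its estimate of 1.74 was the highest of the members and had a wide error (SE 0.68, edgeR adjusted p = 0.0546). miR-376c-3p gave 0.39 and miR-300-3p and miR-381-3p 0.52 and 0.55 on the log2 scale for HF over LF, none of them called.

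Of the 16 tested members from hairpins within Mirg, 13 were called higher in HF than LF eWAT. mmu-miR-382-5p had 55.3, 60.9 and 81.6 CPM in HFLF eWAT, 82.1, 121 and 239 CPM in HF eWAT and 49.9, 61.4 and 76.9 CPM in LF eWAT. The HF libraries lay above both other diets, narrowly above HFLF, and HF over LF was 1.13 (log2, SE 0.22, edgeR adjusted p = 0.00104). Its partner miR-382-3p had 18.9, 24.1 and 28.6 CPM on HFLF, 24.8, 35 and 62.6 CPM on HF and 13.4, 17.7 and 30.9 CPM on LF. It overlapped between diets and was called higher in HF than LF by 0.96 (log2, edgeR adjusted p = 0.00412). mmu-miR-134-5p, which limits Limk1 at synapses of rat hippocampal neurons, had 7.58, 10.2 and 14.0 CPM on HFLF, 16.9, 22.1 and 41.7 CPM on HF and 9.58, 11.6 and 15.2 CPM on LF. No HF library fell within the range of the other diets, and the log2 fold change of HF over LF was 1.06 (SE 0.22, edgeR adjusted p = 0.00125). Both strands of miR-485 were called: miR-485-5p had 8.95, 12.6 and 15.4 CPM on HFLF, 19.4, 26.4 and 67.6 CPM on HF and 8.22, 12.1 and 16.8 CPM on LF. mmu-miR-485-3p had 10.5, 18.2 and 23.8 CPM on HFLF, 31.0, 37.5 and 70.4 CPM on HF and 14.7, 17.7 and 25.0 CPM on LF. In both strands HF stood clear of the other diets, with HF over LF at 1.42 for miR-485-5p (log2, SE 0.28, edgeR adjusted p = 0.00105) and 1.17 for miR-485-3p (log2, SE 0.24, edgeR adjusted p = 0.00113).

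At the far end, miR-541-5p, miR-409-3p and miR-369-3p are abundant members. mmu-miR-409-3p had 32.2, 35.9 and 40.2 CPM in HFLF eWAT, 57.6, 80.0 and 153 CPM in HF eWAT and 31.0, 35.9 and 48.4 CPM in LF eWAT. It had the smallest p of the cluster in this contrast: HF was above LF in every library, with a log2 fold change of 1.21 (SE 0.21, edgeR adjusted p = 0.000434). mmu-miR-541-5p, the second most abundant member, had 148, 169 and 230.5 CPM on HFLF, 202, 320 and 614 CPM on HF and 100.03, 159.8 and 207 CPM on LF. Its lowest HF library lay just under its highest LF library, and HF over LF was 1.16 (log2, SE 0.23, edgeR adjusted p = 0.0012). mmu-miR-369-3p, which acts on the TNF messenger in human cells, had 41.1, 55.2 and 62.7 CPM on HFLF, 47.6, 80.2 and 113 CPM on HF and 33.8, 58.7 and 63.1 CPM on LF. The diets overlapped and its HF over LF difference of 0.54 was not called (log2, edgeR adjusted p = 0.061).

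**Figure D2:**
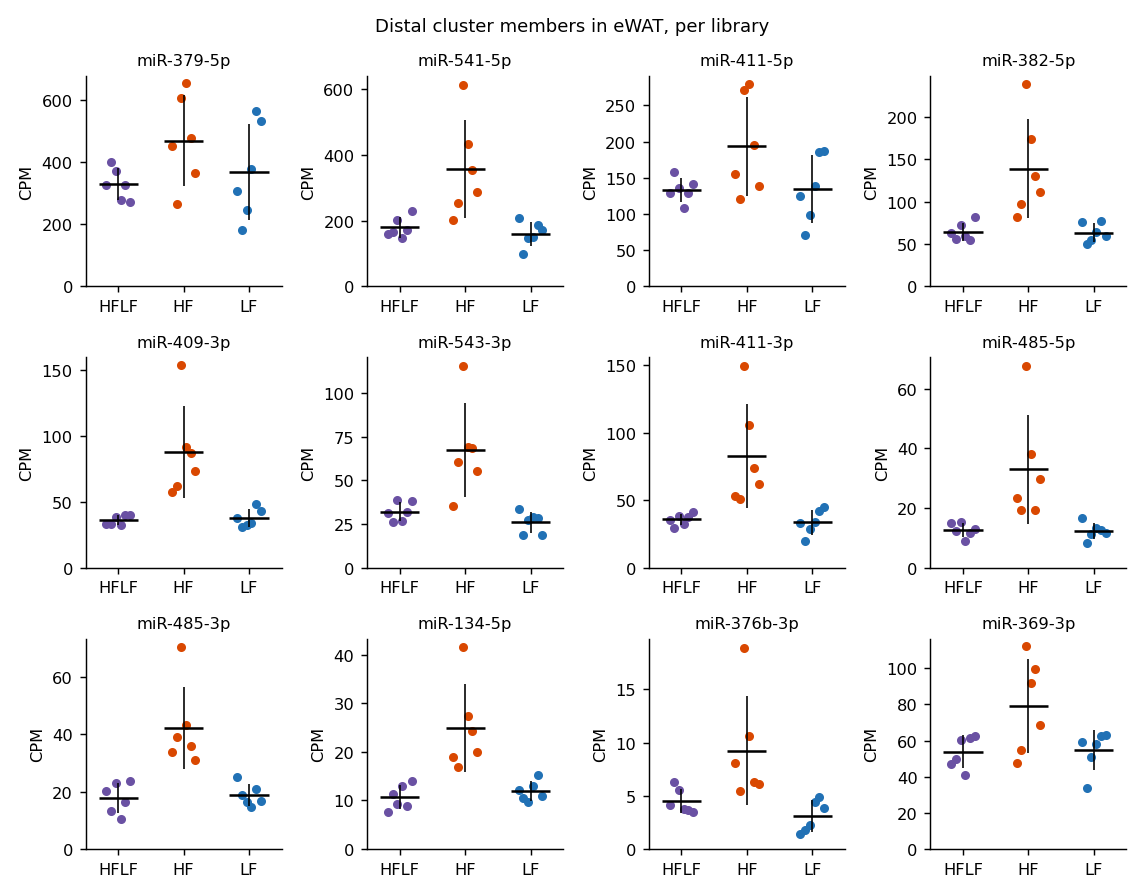
Levels of named members in eWAT in CPM (vertical axes, each on its own scale) by diet; points are libraries, horizontal lines the mean and vertical bars 1 SD (n = 6). In miR-409-3p, miR-411-3p and miR-485-3p all HF points lie above those of HFLF and LF, while miR-379-5p and miR-411-5p overlap across the diets.

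By rank, distance from miR-379 and level showed little relation to the size of the HF over LF difference, while a larger part of the members within Mirg was called. Across the 37 tested members the log2 fold change had a Spearman rho of 0.0875 with distance from miR-379 and of -0.117 with the LF mean level; the members share their libraries, so both are descriptions. Upstream of the annotated Mirg, 8 of 21 tested members were called higher (median log2 fold change 0.78, from 0.35 to 1.74), and within it 13 of 16 (median 1.10, from 0.54 to 1.42). Of the low members named above, miR-380-3p, miR-380-5p, miR-376a-3p and miR-539-5p lie upstream and miR-412-5p lies within. None of them was called, and they count in the totals of both places. The upstream maximum of 1.74 is that of miR-376a-3p. With an LF mean of at least 10 CPM, 12 of 16 were called (median 1.10), and under 10 CPM 9 of 21 (median 0.97). By strand, 15 of 24 tested 3p members and 6 of 13 tested 5p members were called, with medians of 0.97 and 1.06. The difference between these groups of members was not tested.

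After the return to low fat, the members called against HF were all lower. The quasi-likelihood test called 22 of 37 members lower in HFLF than in HF eWAT and 0 higher, where 16.3% of all tested miRNAs were lower and 9.63% higher. The log2 fold changes of all 37 were negative, between -1.79 and -0.38 with a median of -1.0, beside -0.09 over all tested miRNAs. The HFLF and HF libraries of 8 members, the low member miR-380-3p among them, did not overlap, where 5.6% of all tested miRNAs were lower without overlap. On the log2 scale HFLF over HF was -1.27 for miR-409-3p (SE 0.21, edgeR adjusted p = 0.00149), -1.22 for miR-134-5p (edgeR adjusted p = 0.00202), -1.25 for miR-485-3p (edgeR adjusted p = 0.00202) and -1.10 for miR-382-5p (edgeR adjusted p = 0.00251). In these 4 every HFLF library lay below every HF library. miR-543-3p (-1.07, edgeR adjusted p = 0.00355) and miR-541-5p (-0.99, edgeR adjusted p = 0.00585) were called with overlapping libraries. For miR-379-5p, miR-411-5p and miR-369-3p the HFLF over HF values were -0.51, -0.54 and -0.56 on the log2 scale, and none was called. mmu-miR-380-3p was near the limit of detection, with 0, 0.663 and 1.30 CPM on HFLF, 2.02, 2.05 and 4.43 CPM on HF and 0.503, 1.07 and 1.74 CPM on LF. Its HF libraries were above all others. It is 1 of the 5 low members and reached the filter's level through the HF libraries, so its value against HFLF (-1.79, edgeR adjusted p = 0.0147) is given only as a description; HF over LF was 1.20 (edgeR adjusted p = 0.0639). Of the 32 members that reached that level in the HFLF and LF libraries alone, 21 were called lower in HFLF than HF, with log2 fold changes of all 32 between -1.37 and -0.38.

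The HF over LF and HFLF over HF contrasts share the HF libraries, so their opposite signs are not independent. Of the 37 members, 18 were called in both, miR-495-3p, miR-329-3p and miR-410-3p in HF over LF alone, and miR-380-3p, miR-323-3p, miR-299a-3p and miR-299a-5p in HFLF over HF alone. The remaining 12 were called in neither. Without HF 3, 17 members were called higher in HF than LF and 13 lower in HFLF than HF, where 17.4% and 11.5% of all tested miRNAs were.

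**Figure D3:**
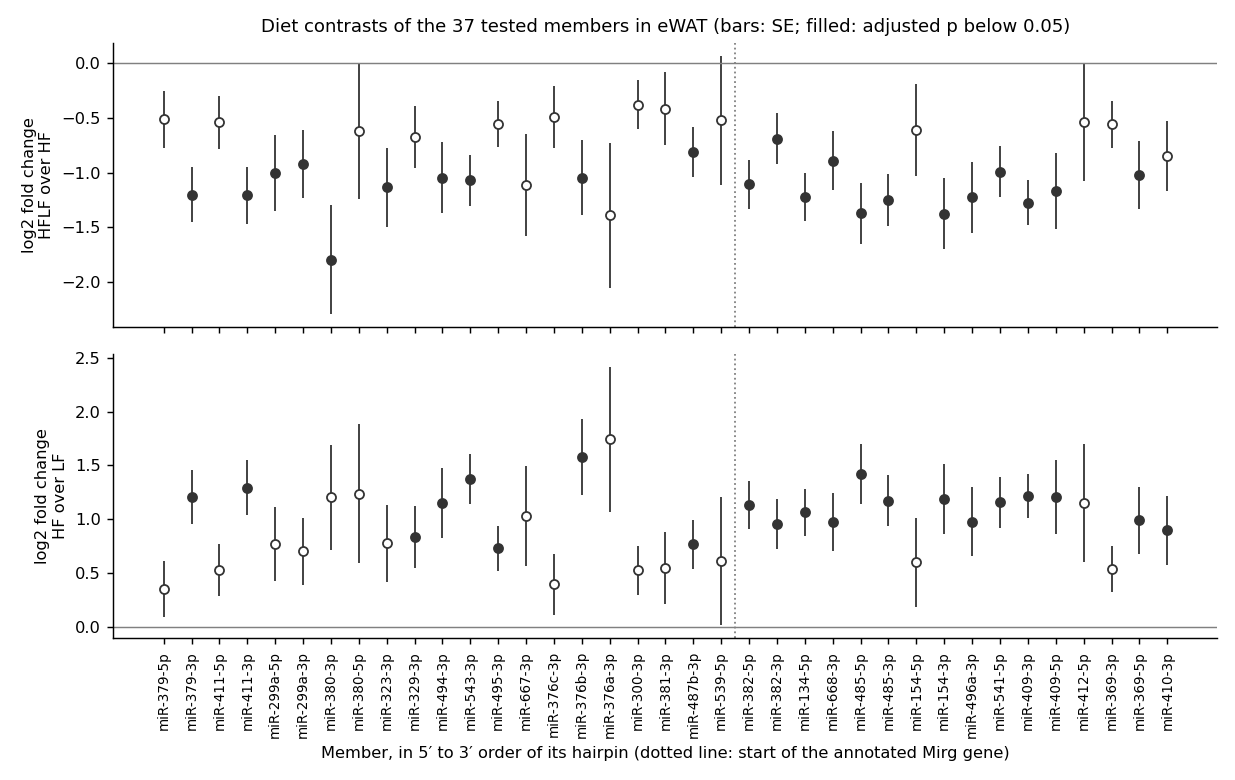
Log2 fold changes of the 37 tested members in eWAT (vertical axes), in genome order from miR-379 to miR-410 (horizontal axis), for HFLF over HF in the upper panel and HF over LF in the lower; bars are the SE, filled points have an adjusted p below 0.05, and the dotted line marks the annotated start of Mirg. All points lie below 0 in the upper panel and above 0 in the lower, 22 and 21 of them filled.

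Between HFLF and LF eWAT no member was called, and the estimates were scattered about 0. The quasi-likelihood test called 0 of 37 members, where 0.0% of all tested miRNAs were called, and 0 members had an unadjusted p below 0.05. DESeq2 also called 0 members, where it called 2.11% of the miRNAs it tested. There were 20 positive and 17 negative log2 fold changes, from -0.59 to 0.62 with a median of 0.03. The smallest p belonged to miR-376b-3p (0.53, SE 0.35, edgeR adjusted p = 0.616), followed by miR-543-3p (0.30, SE 0.23, edgeR adjusted p = 0.692) and miR-382-3p (0.27, SE 0.23, edgeR adjusted p = 0.729). For miR-409-3p the HFLF over LF value was -0.06 (SE 0.20) and for miR-382-5p 0.03 (SE 0.22). These errors leave room for differences in either direction.

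Levels in whole fat also follow which cells the pad holds, and in such bulk samples a larger number of cells of a type and more RNA per cell cannot be told apart. The summed level of 8 leukocyte miRNAs was 2289 to 3759 CPM on HFLF, 2467 to 4876 CPM on HF and 1884 to 2733 CPM on LF, with HF 3 the highest; 5 of the 8 were called higher in HF than LF, 2 were called lower in HFLF than HF, and none was at 0 in all libraries. The summed level of 6 fat-cell miRNAs had medians of 172160 CPM on HFLF, 93087 CPM on HF and 178790 CPM on LF, and 4 of the 6 were called lower in HF than LF. Of 5 fibroblast and mesenchyme miRNAs, with sums of 9331 to 13594 CPM on HFLF, 9827 to 18835 CPM on HF and 7798 to 16271 CPM on LF, 1 was called higher in HF than LF. Several other lists were lower in HF than LF: 5 of 5 tested epididymis epithelium markers, 2 of 3 hepatocyte, 2 of 3 striated muscle and 2 of 3 erythroid ones were called lower. Of 4 tested neuron miRNAs 1 was called higher and 1 lower, and of 2 endothelial ones none was called. Against HF, HFLF had 3 of the 6 fat-cell and 2 of the 3 erythroid miRNAs called higher and 1 of the 5 fibroblast and mesenchyme ones lower, and none of the tested epithelium, hepatocyte, muscle, neuron or endothelial ones called. The erythroid sum was 1547 to 2506 CPM on HFLF, 395 to 1317 CPM on HF and 1197 to 1900.5 CPM on LF, and the striated muscle sum had medians of 2959 CPM on HFLF, 1099 CPM on HF and 5057 CPM on LF. The part of these cell types in the cluster's differences was not tested. Without HFLF 4, LF 4 and LF 5, the libraries highest in those markers, 22 members were called higher in HF than LF and 16 lower in HFLF than HF. In that fit 111 of 585 tested miRNAs were called higher in HF than LF and 83 lower in HFLF than HF. With all libraries these were 112 and 93 of 571.

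Of 9 hairpins of the cluster with both strands listed, 1, miR-411, had a strand balance that was called between diets, a share not far from that over all hairpins. For these 9, the ratio of 5p to 3p was compared in eWAT by a two-sided exact permutation test on log2 ratios (0.5 CPM added to each strand), with adjustment over all 154 hairpins that had both strands tested. For miR-411 the ratio was 3.36, 3.49 and 5.39 in HFLF eWAT, 1.82, 2.51 and 2.92 in HF eWAT and 3.465, 3.94 and 4.42 in LF eWAT. The HF ratios were below all others: HF minus LF was -0.68 (log2, exact permutation p = 0.00216, adjusted p = 0.0417) and HFLF minus HF was 0.62 (exact permutation p = 0.00216, adjusted p = 0.037), where 0.00216 is the smallest p that 6 against 6 libraries allow. For HFLF minus LF it was -0.06 (exact permutation, adjusted p = 0.91). miR-411 was the only one of the 9 called, where 5.19% of the 154 hairpins were called for HF against LF, 9.74% for HFLF against HF and 0.0% for HFLF against LF. miR-379 had ratios of 12.1, 18.4 and 23.1 on HFLF, 8.30, 12 and 17.8 on HF and 14.7, 18.7 and 29.0 on LF. Its HF minus LF value of -0.71 was as large as that of miR-411 with overlapping libraries (exact permutation p = 0.0108, adjusted p = 0.0877), and HFLF minus HF was 0.62 (exact permutation p = 0.0216, adjusted p = 0.0952). For miR-382 HFLF minus HF was -0.39 (exact permutation p = 0.0195, adjusted p = 0.0952). Without LF 4 and LF 5 the HF minus LF value for miR-411 was -0.62 (exact permutation p = 0.00476, adjusted p = 0.105). That p is the smallest that 6 against 4 libraries allow, and 7 hairpins reached it. The adjusted p depends on how many hairpins do so as well as on the number of libraries. The 3p strands of miR-379 and miR-411 are the near copies described above, and the split of reads between them bears on both ratios.

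**Figure D4:**
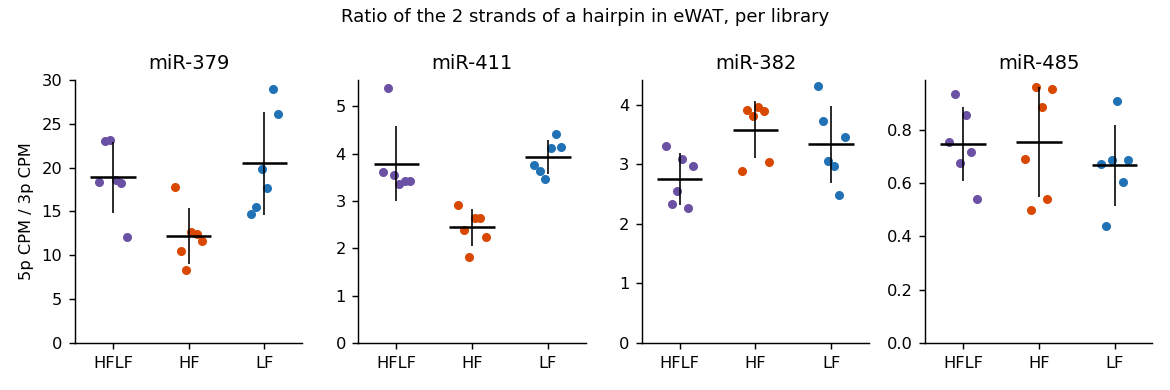
Ratio of the 5p to the 3p strand in eWAT (vertical axes, linear) by diet for 4 hairpins of the cluster; points are libraries, horizontal lines the mean and vertical bars 1 SD (n = 6). The miR-411 ratio is between 1.82 and 2.92 on HF and 3.36 or higher in all HFLF and LF libraries.

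The proximal miRNAs of the same imprinted region, which lie toward Meg3 and the Rtl1 antisense transcript, were also higher on HF in eWAT where they were called. Of 33 listed names 17 were tested: 12 were higher in HF than LF (median log2 fold change 1.07) and 8 lower in HFLF than HF (median -0.96), with none called between HFLF and LF. Of all tested miRNAs 19.6% were higher in HF than LF and 16.3% lower in HFLF than HF. Their sum was 437, 469 and 689 CPM on HFLF, 625, 826 and 1532 CPM on HF and 355, 482 and 556 CPM on LF, with every HF library above every LF library. mmu-miR-431-5p gave 1.54 (edgeR adjusted p = 0.000524), mmu-miR-127-3p 1.07 (edgeR adjusted p = 0.00119) and mmu-miR-434-3p 0.85 (edgeR adjusted p = 0.00294) for HF over LF on the log2 scale, and mmu-miR-136-5p -0.13 (edgeR adjusted p = 0.87). Among strands and hairpins of the distal cluster outside the 42, only 4 were tested, of which 2 were higher in HF than LF and 3 lower in HFLF than HF, beside the same shares over all.

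In liver the cluster was scarce, and its summed level had another order of diets, with the median highest on LF. The summed level was 28.0, 32.7 and 53.2 CPM in HFLF liver, 25.7, 40.3 and 138 CPM in HF liver and 41.9, 94.9 and 135 CPM in LF liver, resting on 245 to 1346 counts per library. The LF libraries fell into 3 with 124 to 135 CPM and 3 with 41.9 to 65.9 CPM, and within HF the libraries HF 5 and HF 6 stood above the other 4. Mean sums were 35.9 ± 9.26 CPM on HFLF, 59.0 ± 42.8 CPM on HF and 91.9 ± 42.9 CPM on LF (SD, n = 6 each), so HFLF stood at 0.391 times LF, HFLF at 0.609 times HF and HF at 0.642 times LF. The median was highest in LF for 11 of the 12 tested members and lowest in HFLF for 8. Whether these orders exceed the spread was asked member by member.

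No member was called in liver in any contrast. For HF against LF the quasi-likelihood test called 0 of 12, where 5.69% of all tested miRNAs were called in either direction; 11 of the 12 fold changes were negative, the median was -0.59, and 2 members had an unadjusted p below 0.05. For HFLF against HF it called 0 of 12, where 0.0% of all were called; all 12 fold changes were negative with a median of -0.70, and 2 had an unadjusted p below 0.05. For HFLF against LF it called 0 of 12, where 0.0% of all were called; all 12 were negative with a median of -1.36, beside -0.02 over all tested miRNAs, and 10 had an unadjusted p below 0.05. For this last contrast DESeq2 called 2 members lower, where it called 0.748% of all miRNAs lower, and the fit without the count filter called 4 lower, where 0.848% of all were. The counts of unadjusted p lack a share over all tested miRNAs and are not read as a result. Of the 12, 2 reached the filter's level in all 6 HFLF libraries, 4 in all 6 HF and 6 in all 6 LF libraries. In 6 or more of the HFLF and LF libraries 9 did, but miR-494-3p, miR-543-3p and miR-382-3p did not. Which members were tested thus bears on the signs against HFLF.

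miR-541-5p showed the clearest separation in liver. It had 4.44, 5.55 and 7.66 CPM in HFLF liver, 4.46, 8.67 and 27.9 CPM in HF liver and 9.64, 20.2 and 30.8 CPM in LF liver. Every HFLF library lay below every LF library, as for 0.237% of all tested miRNAs, with HFLF over LF at -1.74 (log2, SE 0.39, edgeR adjusted p = 0.101). miR-543-3p had 0.674, 0.754 and 1.08 CPM on HFLF, 0.787, 1.56 and 5.02 CPM on HF and 0.752, 2.51 and 9.05 CPM on LF. Its libraries overlapped, and HFLF over LF was -2.18 (log2, SE 0.57, edgeR adjusted p = 0.198). miR-379-5p had 6.46, 8.50 and 16.3 CPM on HFLF, 6.29, 11 and 35 CPM on HF and 8.60, 19.9 and 39.3 CPM on LF, with overlap and an HFLF over LF value of -1.17 (log2, SE 0.41, edgeR adjusted p = 0.244). miR-411-5p had 0.847, 3.41 and 6.69 CPM on HFLF, 0.962, 4.15 and 12.8 CPM on HF and 3.71, 9.24 and 14.1 CPM on LF, and HFLF over LF was -1.29 (log2, SE 0.51, edgeR adjusted p = 0.296). In these members the HF libraries overlapped with those of both other diets.

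miR-382-5p and miR-411-3p had the smallest p for HF against LF in liver. miR-382-5p had 0.636, 2.21 and 4.53 CPM in HFLF liver, 1.14, 2.16 and 5.33 CPM in HF liver and 3.10, 4.83 and 12.6 CPM in LF liver, and HF over LF was -1.27 (log2, SE 0.48, edgeR adjusted p = 0.103). miR-411-3p had 1.08, 1.75 and 2.56 CPM on HFLF, 0.443, 1.96 and 6.46 CPM on HF and 1.95, 5.05 and 8.31 CPM on LF, and HF over LF was -1.0 (log2, SE 0.47, edgeR adjusted p = 0.21). A single library decided these calls: without HF 5, the highest HF library for 10 of the 12 members, 3 members were called lower in HF than LF (4.65% of all tested miRNAs were, and 3.08% with HF 5 in the fit), miR-382-5p among them at -1.61 (edgeR adjusted p = 0.0431) and miR-411-3p at -1.58 (edgeR adjusted p = 0.0307). Markers of other cells also differed between liver libraries: 5 neuron miRNAs summed to 13.3 to 26.6 CPM on HFLF, 12 to 35.1 CPM on HF and 18.4 to 62.1 CPM on LF, with the defining miR-124-3p at 0 in all 18, and 3 striated muscle miRNAs summed to 13.0 to 90.2 CPM on HFLF, 21.8 to 97.6 CPM on HF and 35 to 230.3 CPM on LF. None of these markers was called in liver, and their part in the cluster's values was not tested.

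**Figure D5:**
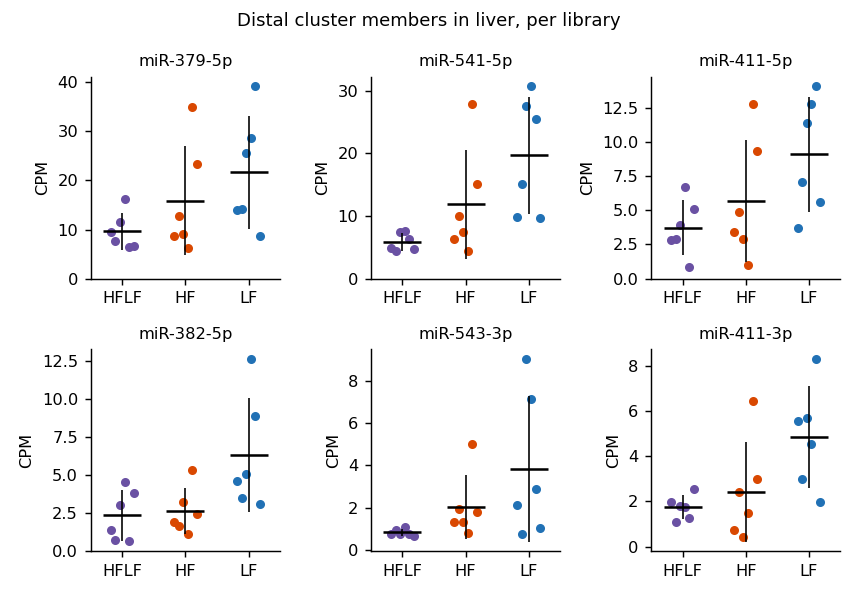
Levels of 6 members in liver in CPM (vertical axes, each on its own scale) by diet; points are libraries, horizontal lines the mean and vertical bars 1 SD (n = 6). For miR-541-5p all HFLF libraries, up to 7.66 CPM, lie below all LF libraries, from 9.64 CPM, and the highest HF point is 27.9 CPM.

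The cluster was higher in the eWAT than in the liver libraries on every diet. Each tissue has its own set of libraries, so tissue and library set cannot be told apart. In a joint edgeR fit of the 36 libraries, all 12 members that passed the filter in both tissues were called higher in eWAT: on HFLF by 2.13 to 4.22 on the log2 scale (median 3.54), on HF by 2.94 to 4.34 (median 3.53) and on LF by 1.37 to 2.96 (median 1.69). Of all miRNAs tested, 37.3%, 41.3% and 37.1% were higher in eWAT on HFLF, HF and LF. The libraries of the 2 tissues did not overlap for all 12 members on HFLF and on HF and for 8 on LF, where 28.2%, 26.1% and 22.9% of all tested miRNAs were higher without overlap on HFLF, HF and LF. On the scale of the joint fit miR-541-5p had 95.4, 111 and 147 CPM in HFLF eWAT against 6.85, 8.76 and 12.7 CPM in HFLF liver, and 65.8, 105 and 131 CPM in LF eWAT against 15.0, 31.9 and 44.6 CPM in LF liver. In liver the hepatocyte miRNAs take a large share of all counts, and scaling by total counts moved the median of all tested miRNAs on HF to 1.75, against 0.37 with TMM.

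Between HF and LF, 4 of the 12 members that passed the filter in both tissues had a higher log2 fold change in eWAT than in liver. In the joint fit, the HF over LF log2 fold change in eWAT minus that in liver was called above 0 for these 4 and below 0 for none of the 12, where 13.5% of all 400 miRNAs past both filters were called above 0. It was 2.26 for miR-382-5p (SE 0.56, edgeR adjusted p = 0.00284), 2.14 for miR-411-3p (SE 0.57, edgeR adjusted p = 0.00603), 2.11 for miR-543-3p (SE 0.59, edgeR adjusted p = 0.00838) and 1.72 for miR-541-5p (edgeR adjusted p = 0.00942). Over all 37 members of the joint fit 9 were called above 0 and none below, where 11.8% of all tested miRNAs were called above 0 and 15.0% below. The other 5 of the 9 entered that fit through eWAT alone and were below the liver filter: miR-495-3p had 20, 16 and 48 counts in all over the 6 HFLF, HF and LF liver libraries, miR-487b-3p 7, 3 and 18, miR-154-5p 14, 0 and 12, miR-496a-3p 2, 2 and 12, and miR-667-3p 1, 3 and 14. Their calls set eWAT beside a liver level near or at 0 and are not read as a difference in response. For HFLF over HF none of the 12 was called; of the 37 miR-154-5p was, where 3.36% of all were called below 0, and with 0 counts in HF liver that call is not read either. For HFLF over LF none of the 12 and 0 of all 37 were called, where 0.0% of all were called. An unadjusted p below 0.05 was held by 7 of the 12, a count that lacks a share over all tested miRNAs and is not read.

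In sperm only miR-380-3p and miR-485-5p were listed, in a table of values read as log2, with a lowest value of 1.72 shared by all libraries. mmu-miR-380-3p stood at 2.91, 1.72, 1.72, 2.18, 4.32 and 2.955 in the 6 HFLF libraries and at 1.72 in all HF and all LF libraries. So 4 of 6 HFLF libraries were above the lowest value and no other library was; the difference HFLF minus HF was 0.91 (SE 0.31, limma adjusted p = 0.0905), and HFLF minus LF was 0.91 (limma adjusted p = 0.315). mmu-miR-485-5p was above 1.72 in HF 3 (2.92), HF 4 (4.20), LF 2 (2.23) and LF 5 (3.92), and in no HFLF library. Neither was called in any contrast, where 0.0% of the 79 miRNAs were called for HF against LF, 1.27% for HFLF against HF and 0.0% for HFLF against LF. The table lists only miRNAs that the authors chose, so the adjustment and these shares cover those 79 and not all sperm miRNAs.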

How the data were processed

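The deposited eWAT and liver tables hold raw counts per mature miRNA made by the authors from NEXTFLEX v3 small RNA libraries; the submitters' processing notes name cutadapt, Bowtie and build GRCm38.p6, and the counting program is not given in the sources used here. The eWAT table repeats 18 liver columns, not used from it. The deposited sperm values were read as log2 from their range; an added column gives the authors' cluster number (1 to 3), and 18 columns of another generation were not used. Diet codes C and R were read as LF and HFLF.

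Counts were fitted per tissue with edgeR 4.0.16 in R 4.3.3 (filterByExpr with diet as group, TMM, quasi-likelihood test, all 3 diets in 1 fit, Benjamini-Hochberg adjustment per contrast, threshold 0.05), and the 36 libraries of both tissues jointly for tissue differences. Sperm values were fitted with limma 3.58.1 (trend). DESeq2 1.42.0 was an alternative. Strand ratios were tested by exact permutation, enumerating all splits in Python 3.11.15; their HFLF contrasts were added to the planned HF against LF one. CPM are TMM-scaled within a tissue. The tests were checked on simulated counts. No 2 libraries of a tissue held the same values, and no 2 eWAT or liver libraries of a diet agreed within sampling noise.

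The members, marker lists and tests were chosen with earlier results of these data known. Members given with group values are the 5 most abundant in eWAT, those of smallest p in eWAT for HF against LF (6), HFLF against HF (4) and HFLF against LF (3), those of highest and lowest fold change, the 4 most abundant and the 2 of smallest p per contrast in liver, and both in sperm. miR-379-3p and further names were added where a partner strand or a count called for them.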

Additional observations from a re-analysis of the deposited data

Results flagged for a closer look

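Several results stood out by their own values. In eWAT the library HF 3 lay far above the other 5 HF libraries for miR-409-3p (153 CPM), miR-485-3p (70.4 CPM) and miR-380-3p (4.43 CPM). In liver the library HF 5 did so for miR-409-3p (11.1 CPM) and miR-543-3p (5.02 CPM). These are 5 of 81 groups of 6 libraries looked at, and chance alone sets apart a library in about 1 in 20 groups; the groups share libraries, so they are not independent.

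Among the 12 members past the filter in both tissues, the HF over LF log2 fold change was higher in eWAT than in liver, by the tissue-by-diet term of the joint edgeR fit, for miR-382-5p (adjusted p = 0.00284), miR-411-3p (adjusted p = 0.00603), miR-543-3p (adjusted p = 0.00838) and miR-541-5p (adjusted p = 0.00942).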

How the results depend on the processing

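In eWAT the count of members higher in HF than LF was 21 with TMM, 20 with RLE factors, 18 with DESeq2, 17 without the count filter and 22 without HFLF 4, LF 4 and LF 5. Without those libraries 111 of 585 tested miRNAs were higher, against 112 of 571 with them. Scaling by total counts gave 32 (35.9% of all tested miRNAs were then higher), and moved the median of all tested miRNAs to 0.32 and that of the members to 1.28 on the log2 scale. Of the 22 members lower in HFLF than HF, 13 remained without the count filter, where more miRNAs were tested. Total counts gave 29 and DESeq2 23. Of all tested miRNAs 16.3% were lower with TMM, 4.29% without the filter, 24.2% with total counts and 14.6% with DESeq2. Leaving out each library gave 17 to 26 members for HF against LF and 13 to 27 for HFLF against HF, the lowest of both without HF 3, and 0 throughout for HFLF against LF. Across these fits 16.2% to 21.2% of all tested miRNAs were higher in HF than LF and 11.5% to 17.9% lower in HFLF than HF. Without HF 3 the shares were 17.4% and 11.5%. In all, 16 of the 21 and 12 of the 22 calls held under every alternative, and no sign turned. The 12 include the low member miR-380-3p, which reached the filter's level through the HF libraries and is not counted as a result. In liver, leaving out each library gave 0 to 3 called members for HF against LF (3 without HF 5) and 0 throughout for the other contrasts. For HFLF against LF, DESeq2 called 2, no filter 4 and a fit of those 2 diets alone 1, and the cause was not tested. Of all tested miRNAs 0.748%, 0.848% and 0.254% were called lower there, in the same order.

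Libraries that share a number deviated together in some pairs only, so the numbers were not taken to pair them. The correlations of their deviations over the 6 pairs of a contrast ran in eWAT from -0.768 to 0.148 for HF and LF, from -0.699 to 0.262 for HFLF and HF and from -0.338 to 0.737 for HFLF and LF. They were over 0.1 in 1, 2 and 2 of the 6 pairs, and in no contrast did every library correlate best with its own number. In liver they ran from -0.219 to 0.276, and between tissues from -0.116 to 0.108. With the replicate number as a block (replicate block), 20 members were called for HF against LF and 19 for HFLF against HF in eWAT, where 18.6% of all tested miRNAs were higher and 13.8% lower. In the joint fit the block was diet and number together, which pairs the liver and eWAT libraries that share both. The HF over LF difference between tissues was then called for 4 members, each past the filter in both tissues, in place of 9. Of all tested miRNAs 8.24% were called above 0 in that fit. For HFLF over HF it was called for 0 in place of 1. With libraries of a number paired, 0 strand ratios were called for HF against LF, where a paired exact permutation test cannot give a p below 0.0312. Without LF 4 and LF 5, 0 strand ratios were called, where 6 against 4 libraries cannot give a p below 0.00476 and 7 hairpins reached that p.

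Depth limits the liver values, where 3 counts amount to as much as 0.451 CPM and 12 of the 42 members passed the count filter.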
